A study of Mus musculus with 4 samples.

Results

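Proximal tubule S2 cells were selected on the UMI (unique molecular identifier) counts of a few segment genes and made up 2708 of the 32407 barcodes that passed the filters in 4 single-cell libraries of mouse renal cortex. A barcode passed with at least 1000 genes detected and at most 50% of its UMIs from mitochondrial (mt-) genes. Of those, S2 cells had at least 3 UMIs of Slc22a8 and at least 2 of Slc34a1 per 10000 UMIs (CP10k), under 4 of the S1 gene Slc5a2, under 5 of the S3 genes Slc7a13 and Slc22a30 together, and under 20 of the thick limb genes Slc12a1 and Umod together. All mice were male and carried floxed Tfeb alleles, including the controls. Tfeb fl/fl KAP mice (KAP mice) also carried Cre under the androgen-regulated Kap promoter, and Tfeb fl/fl mice without it are called control mice. The study places the Cre activity and the loss of TFEB in the S3 segment, so S2 cells of KAP mice are not taken here as Tfeb-deleted cells. They are not taken as cells that the Cre spared either, since they held abundant Kap RNA. Whether the Cre was active in them was not tested. Young mice were 6 weeks old and aged mice 24 months old. The cortex of 2 or 3 mice was pooled into 1 library for each of the 4 conditions, and values of the 4 libraries are given in the order young control, young KAP, aged control and aged KAP. With 1 library per condition there was no replicate and no test between conditions, and every interval covers counting error only.

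The proximal tubule takes back most of the filtered glucose, amino acids, phosphate and bicarbonate, and its S1, S2 and S3 segments follow each other from the glomerulus toward the medulla. The S2 segment is best known for secretion: organic anion transporters of its basolateral membrane take drugs, toxins and metabolites out of the blood. TFEB, the factor targeted in the KAP mice, is a transcription factor of lysosomal and autophagy genes that is held in the cytosol by phosphorylation until cells are starved or their lysosomes are damaged.

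Slc22a8, the organic anion transporter OAT3, set the lower bound of the selection, and Miox, myo-inositol oxygenase, is a marker that the selection did not use. In GRCm38 (mm10) Slc22a8 lies at chr19:8591254-8611835 and Miox at chr15:89334473-89337007. Their RefSeq promoters are shown because these 2 genes carry the selection and its check. The 150 bases before each start are given on the plus strand, chr19:8593032-8593181 for Slc22a8 and chr15:89334323-89334472 for Miox, with the TATA letters TATAAA, read on either strand, in capitals. The Slc22a8 window lies inside the gene's span, before a start downstream of its first.
Slc22a8: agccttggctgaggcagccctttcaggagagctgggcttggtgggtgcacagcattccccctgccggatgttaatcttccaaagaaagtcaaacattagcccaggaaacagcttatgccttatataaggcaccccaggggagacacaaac
Miox: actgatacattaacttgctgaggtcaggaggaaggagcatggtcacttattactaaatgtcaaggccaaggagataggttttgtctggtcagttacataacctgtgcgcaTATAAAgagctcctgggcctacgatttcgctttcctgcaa
The letters began 40 bases before the start of Miox and were absent from the 250 bases before Slc22a8, Ass1 and Cyp4b1, and 12.4% of 32851 RefSeq promoters held them in a window of that length. The search took exact matches only. The Slc22a8 and Cyp4b1 windows hold tataag, which differs from these letters in the last base and was not counted, so no contrast with Miox is drawn. The letters CAAAGT (either strand), a core of sites bound by HNF4 factors, were in none of these 4 windows and in 12.6% of all. Hnf4a, which encodes one of these factors, was at 171, 196, 234 and 222 CPM (UMIs of the gene per 1000000 UMIs, both summed over the S2 cells of a library).

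The libraries held 758, 763, 756 and 431 S2 cells. These were 6.88% (exact binomial 95% interval 6.42 to 7.37), 9.01% (8.41 to 9.64), 12.6% (11.8 to 13.5) and 6.22% (5.66 to 6.81) of the filtered barcodes. Under these bounds the S2 share was highest in aged control mice by more than counting error, while the intervals of aged KAP and young control mice overlapped. The order depended on the bounds: the shares were 10.5%, 13.5%, 28.9% and 20.1% without the bound on the S3 genes, and 1.24%, 1.92%, 1.37% and 0.967% with 0 UMIs of these genes. The part of pooling and digestion in these shares was not tested. S1-gated cells, with Slc5a2 at 4 CP10k or more, numbered 1452, 1421, 483 and 515. S3-gated cells, with the S3 genes at 5 CP10k or more, numbered 1106, 809, 1305 and 1332. Cells that met every S2 bound but the one on the S3 genes numbered 398, 379, 975 and 959, so more cells were turned away at the S3 border in the aged libraries. Cells that failed by Slc5a2 alone numbered 492, 664, 246 and 297, and those that failed by Slc22a8 alone 895, 519, 477 and 403.

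Many cells lay close to a bound. In the young control library the S2 cell nearest the Slc22a8 bound had 3.002 CP10k and the nearest cell outside it 2.999 CP10k. In the same library the S2 cell nearest the S3 bound had 4.995 CP10k of Slc7a13 and Slc22a30 together, and the nearest outside 5.003 CP10k. Within 25% of the S3 bound there were 127, 121, 165 and 84 S2 cells. The bounds therefore cut through a continuous range of values.

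The S2 cells held 13465949, 14347720, 17569327 and 9853355 UMIs in sum. Their median was 16977, 15187, 23908 and 20006 UMIs and 3475, 3246, 3903 and 3682 genes per cell, and mt- genes took a median 25.04%, 22.9%, 25.2% and 24.6% of the UMIs. The aged S2 cells were therefore deeper than the young ones. At these depths a count of 0 allows up to 0.223, 0.209, 0.171 and 0.304 CPM (3 counts). Across the libraries 233 barcodes occurred in more than 1 library, 97 of them after the filters and 0 among the S2 cells. No doublets were removed. S2 cells with over 3 times the median UMIs of their library's filtered barcodes numbered 27, 88, 33 and 100, that is 3.56%, 11.5%, 4.37% and 23.2% of the S2 cells.

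The labelled identity was checked against markers that the selection did not use. Lrp2 and Cubn, the endocytic receptors megalin and cubilin, were at 1066, 1006, 1368 and 1124 CPM and at 90.8, 96.0, 176 and 145 CPM. Fbp1, a fructose bisphosphatase of gluconeogenesis, was at 906, 1005, 988 and 1034 CPM. Of 4 further S2 markers, Slc22a6 (the organic anion transporter OAT1) was at 709, 926, 534 and 546 CPM and Slc13a3, a dicarboxylate transporter, at 215, 265, 226 and 210 CPM. Neither was higher in S2 than in S3-gated cells of every library, since in S3-gated cells Slc22a6 was at 750, 1037, 695 and 774 CPM and Slc13a3 at 185, 250, 249 and 230 CPM, while both were lower in S1-gated cells of every library. Slc22a7 was at 0.74, 1.46, 1.14 and 2.13 CPM and Slc22a13 at 0.30, 0.70, 0.40 and 0.71 CPM, close to the level that a few counts give, and both were higher in S3-gated cells of every library. Of the S1 markers not used, the basolateral glucose transporter Slc2a2, Slc5a12, Slc6a19 and Slc7a7 lay below S1-gated and above S3-gated cells in every library (Slc2a2 at 136, 117, 139 and 160 CPM in S2 cells), whereas the urate transporter Slc22a12 lay above S1-gated and below S3-gated cells (274, 336, 220 and 230 CPM in S2 cells). Of the 7 S3 markers, Cyp7b1, Slc22a19 and Bcat1 stayed under 1 CPM, but in S3-gated cells of the aged libraries they too were at most 2.67 CPM. Acy3 was at 1342, 1659, 831 and 960 CPM and Slc5a8 at 197, 153, 101 and 75.4 CPM, both between S1- and S3-gated cells in every library.

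RNA of other kidney cells was present at low levels. The 6 markers of connecting tubule and principal cells summed to 190, 113, 96.2 and 256 CPM. The highest of them were Calb1 in the young control library, Aqp2, a water channel of principal cells, in the young KAP library and Hsd11b2 in both aged libraries. The 5 thick ascending limb markers summed to 89.0, 23.5, 25.5 and 28.2 CPM, led by Umod, which the selection bounded, in all but the aged KAP library, where Kcnj1 was highest, and Cldn16 was at 0 in both KAP libraries. The 4 distal convoluted tubule markers summed to 66.1, 37.99, 48.4 and 93.7 CPM, led by Slc12a3. The 5 intercalated cell markers summed to 10.4, 3.42, 5.58 and 22.0 CPM, the 4 podocyte markers to 21.3, 11.3, 13.6 and 13.1 CPM (Nphs1 at 0 in aged KAP mice) and the 5 endothelial markers to 10.6, 43.8, 36.5 and 62.7 CPM. The 5 mural and fibroblast markers summed to 25.99, 19.4, 9.62 and 4.47 CPM, with Col1a1 at 0 in all 4 and Acta2 at 0 in aged KAP mice, and the 5 myeloid markers to 41.1, 9.41, 40.1 and 33.3 CPM, led by Lyz2 in the young control library and by Cd74 in the others. The 5 lymphocyte markers reached at most 2.60 CPM and the 3 cycling markers at most 5.198 CPM. The hemoglobin genes Hba-a1 and Hbb-bs summed to 82.7, 128.7, 69.3 and 0 CPM. The 41 such markers other than those of the thick limb and of cycling cells were also summed per cell. S2 cells in which they together reached 20 CP10k numbered 38, 18, 29 and 29, or 5.01%, 2.36%, 3.84% and 6.73%. Of the injury markers, Havcr1, which encodes KIM-1, was at 0.15, 0.21, 0.51 and 0.30 CPM and the adhesion molecule gene Vcam1 at 0.59, 0.14, 4.38 and 4.47 CPM. The summed level of the 7 markers, 284, 80.6, 171 and 97.4 CPM, was mostly Spp1, which encodes osteopontin (271, 69.5, 155 and 73.8 CPM).

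Miox was higher in S2 cells than in S1- and S3-gated cells of the same library in all 4. It was at 3746, 4314, 3571 and 3838 CPM in S2 cells, at 2610, 3525, 2376 and 3103 CPM in S1-gated cells and at 2126, 2577, 3327 and 3578 CPM in S3-gated cells. Its margin over S3-gated cells was therefore small in the aged libraries. Ass1, argininosuccinate synthase, which with argininosuccinate lyase makes arginine in this tissue, was above S3-gated cells in all 4 libraries but below S1-gated cells in the young KAP library. Cyp4b1, a cytochrome P450, was at 1935, 2237, 1914 and 2207 CPM in S2 cells, above S1-gated cells of the same library in all 4 and below S3-gated cells in all 4. Slc13a1, the sodium-sulfate cotransporter, was at 378, 405, 703 and 654 CPM in S2 cells, higher in both aged libraries. In the aged libraries it was also at 836 and 831 CPM in S1-gated against 532 and 470 CPM in S3-gated cells. Slc22a8 itself, which chose the cells, was at 572, 640, 637 and 611 CPM. Slc34a1, the phosphate transporter NaPi-2a, was at 3852, 4032, 3927 and 3864 CPM. The plot of levels along the tubule shows these patterns by library.

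**Figure D1:**
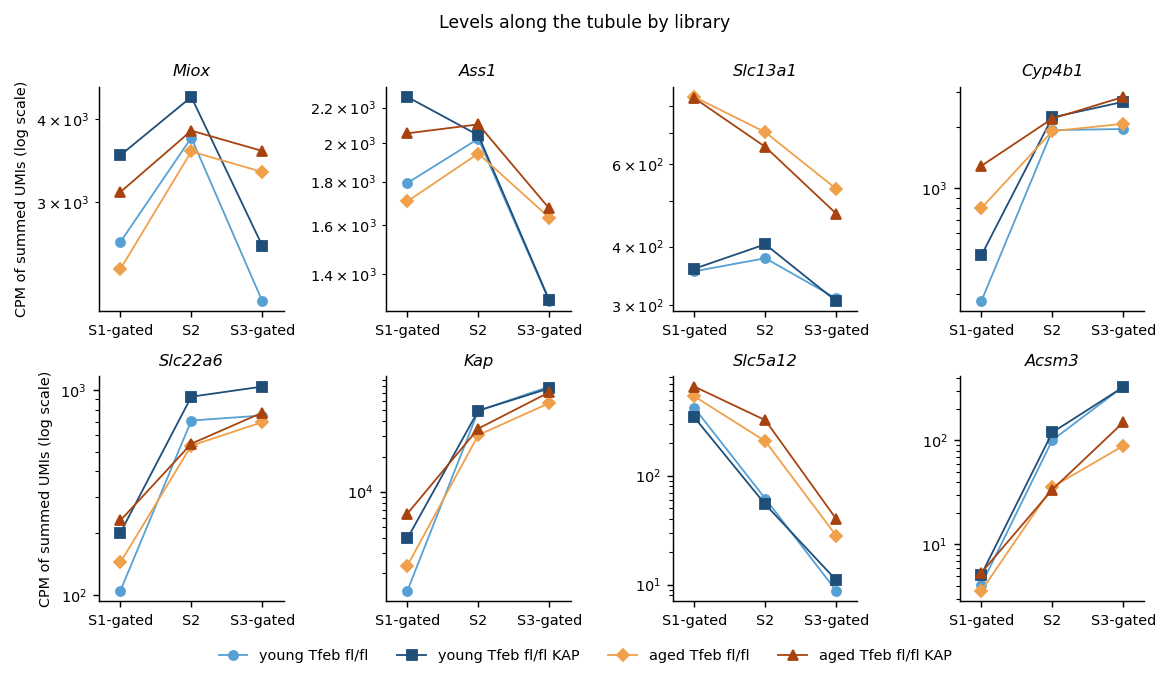
CPM of summed UMIs (log scale) in S1-gated, S2 and S3-gated cells for 8 genes, with 1 point per library and colours and shapes for the 4 conditions (control mice are shown as Tfeb fl/fl). Miox peaked in S2 cells in all 4 libraries, Kap and Acsm3 climbed from S1-gated to S3-gated cells, and Slc5a12 went the other way.

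More genes separated S2 cells from S1-gated than from S3-gated cells. Of 4903 genes compared with S1-gated cells, 123 (2.51%) were at least 1.5-fold higher in S2 cells in all 4 libraries and 256 (5.22%) lower. Of 4629 compared with S3-gated cells, 44 (0.951%) were higher and 48 (1.04%) lower. The cells were gated on segment genes, and these counts are descriptions. Kap, the androgen-regulated kidney protein, was at 49245, 49528, 30569 and 34750 CPM in S2 cells, at 1414 to 6490 CPM in S1-gated cells and at 57388 to 79535 CPM in S3-gated cells. The fatty acid carrier Cd36 (104, 116, 85.7 and 93.7 CPM), the aspartic protease Napsa (498, 491, 532 and 278 CPM) and Ly6a (392, 487, 218 and 202 CPM) were also among the 8 genes furthest above S1-gated cells. The other 5 were Cyp2a4, Slc5a8, Acsm3, Cyp4a14 and Kap. Furthest above S3-gated cells were the lactate transporter Slc5a12, the growth factor Mdk, the neutral amino acid transporter Slc6a19, ornithine aminotransferase Oat, glycine amidinotransferase Gatm (the first enzyme of creatine synthesis), the glycine cleavage enzyme Gldc, Spp1 and Spp2. Gatm was at 1315, 1086, 1182 and 1194 CPM in S2 cells, against 2578 to 4442 CPM in S1-gated and 171 to 339 CPM in S3-gated cells.

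The 10 genes that varied most between S2 cells of 1 library included Malat1, Kap, Dusp1, Jun and Neat1. With each cell thinned to 2000 UMIs, the variance over the mean (Fano factor) of Malat1, a nuclear long noncoding RNA, was 77.7, 95.9, 78.0 and 92.8. A thinned cell held a UMI of Malat1 in 60.7%, 43.2%, 59.5% and 60.6% of S2 cells, and before thinning in 62.0%, 43.4%, 59.7% and 60.6%. Kap had Fano factors of 46.9, 41.2, 38.4 and 39.6 and was present in 89.9%, 89.4%, 92.8% and 89.8% of thinned cells. The immediate early genes Dusp1 and Jun, a phosphatase and a transcription factor that tissue dissociation also raises, had Fano factors of 4.57 to 5.76 and 4.49 to 5.69. Ttr (4.42 to 5.45), which encodes transthyretin, Gadd45g (3.87 to 6.69), a growth arrest gene, and Neat1 (3.73 to 4.92), another nuclear RNA, followed. Tmsb4x, S100g and Gm42418 were also among the 10 genes, S100g with a UMI in 11.1%, 0.262%, 0.265% and 0.232% of S2 cells. By contrast Slc22a8, which was bounded, had Fano factors of 0.94 to 1.10, near the value of 1 that counting alone gives.

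Tfeb (GRCm38 chr17:47737037-47792416) was detected at 7.28, 5.72, 5.52 and 6.09 CPM, so its level differed by less than counting error between genotypes at either age (log2 ratio −0.35, 95% interval −0.79 to 0.09, in young and 0.14, −0.35 to 0.62, in aged mice). Which exons were flanked was not known here, and the UMIs mark 3′ ends, so this level checks no genotype label.

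More genes passed the fold between ages than between genotypes in S2 cells. A gene counted as past the fold if its mean was at least 20 CPM, its CPM differed at least 1.5-fold and the exact 95% interval of its log2 ratio left out 0. In control mice 204 of 4637 genes (4.4%) were higher and 109 (2.35%) lower in the aged library. In KAP mice 212 of 4620 (4.59%) were higher and 102 (2.21%) lower. The age comparisons share no library, and 89 of 4500 genes compared in both (1.98%) were higher in both while 46 (1.02%) were lower in both. Another 9 (0.2%) were lower in the first and higher in the second, and 0 (0.0%) the reverse. Scaling to nuclear genes alone gave 250 higher and 139 lower of 5476 genes in control, and 342 higher and 107 lower of 5457 in KAP mice. With each cell weighing the same the latter were 363 and 107 of 4713, but there no interval was required.

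The genes furthest above the young libraries included 5 cytochromes P450 and genes of lipid and amino acid handling. Cyp2d12 (chr15:82555043-82559413) was at 58.4 and 62.0 CPM in young and 674 and 627 CPM in aged mice. The log2 ratio was 3.53 (3.42 to 3.63) in control and 3.34 (3.24 to 3.44) in KAP mice. It was also detected in more cells, with a UMI in 15.4%, 17.6%, 88.1% and 83.1% of S2 cells. The same difference appeared in S1-gated (21.3 and 30.1 against 569 and 604 CPM) and S3-gated cells (35.9 and 37.3 against 706 and 562 CPM), so it was not particular to S2 cells. Cyp2a4 (14.2, 27.7, 144 and 143 CPM), Cyp2a5 (28.1, 23.8, 113 and 152 CPM), Cyp2d9 (47.5, 52.2, 180 and 194.7 CPM) and Cyp2c23 (34.7, 27.9, 141 and 100 CPM), enzymes that oxidise drugs, steroids or fatty acids, were also higher in both aged libraries. Members of the Cyp2a and Cyp2d families are close in sequence, and how UMIs were split between them is uncertain. Gsta2, a glutathione transferase, was at 172, 100, 510 and 534 CPM, and Fmo2, a flavin monooxygenase, at 227, 221, 470 and 355 CPM.

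**Figure D2:**
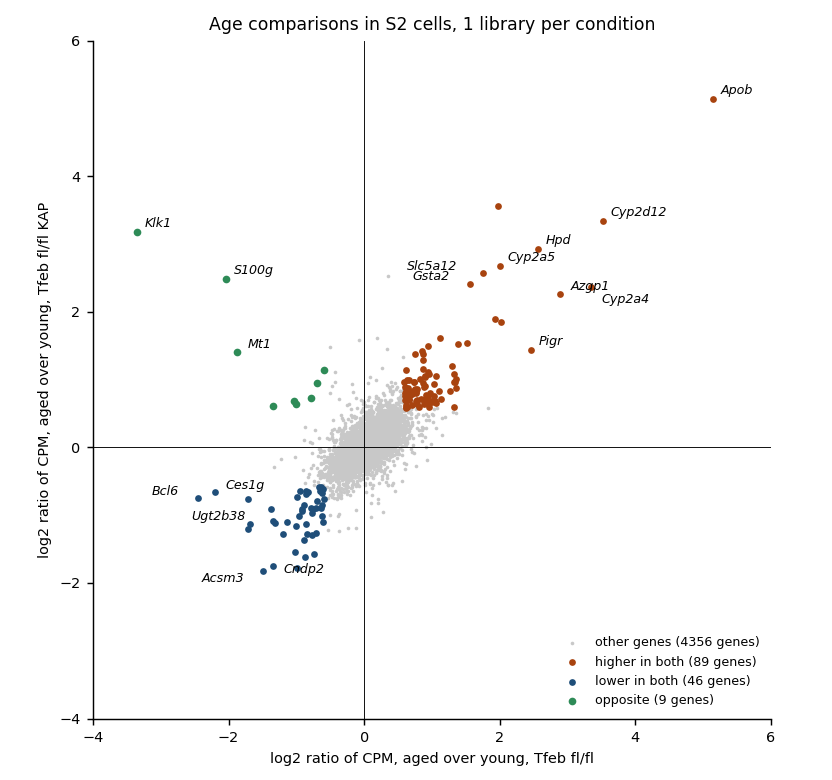
log2 ratio of CPM, aged over young, in control (x axis) and KAP (y axis) S2 cells, with 1 point per gene for the 4500 genes compared in both. Apob and Cyp2d12 stand furthest out among the 89 genes higher in both, and the 9 genes of opposite direction include Klk1, S100g and Mt1.

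Apob (chr12:7977629-8016839), the structural protein of chylomicrons and low density lipoproteins, had the largest log2 ratios of the genes compared in both, 5.15 (4.65 to 5.70) and 5.14 (4.73 to 5.57). It was at 2.38 and 3.55 CPM in young and 84.5 and 125 CPM in aged S2 cells, and a UMI was found in 3.43%, 4.46%, 41.0% and 55.7% of cells. S1-gated cells held it at 60.02 and 87.5 CPM in young mice and 301 and 307 CPM in aged mice. Mttp, the protein that loads lipid onto Apob, was at 14.3, 15.8, 27.5 and 26.7 CPM. Hpd, an enzyme of tyrosine breakdown, was at 21.2, 9.76, 126 and 74.3 CPM. Azgp1, zinc-alpha-2-glycoprotein, was at 20.6, 34.6, 153 and 166 CPM, and Pigr, the receptor that carries polymeric immunoglobulin across epithelia, at 15.8, 18.3, 87.1 and 49.4 CPM. In both aged libraries these 4 genes were above both young libraries. Aldh1a1, which makes retinoic acid, was at 1.93, 2.44, 30.6 and 46.7 CPM and passed in KAP mice alone, its mean in control being under 20 CPM.

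**Figure D3:**
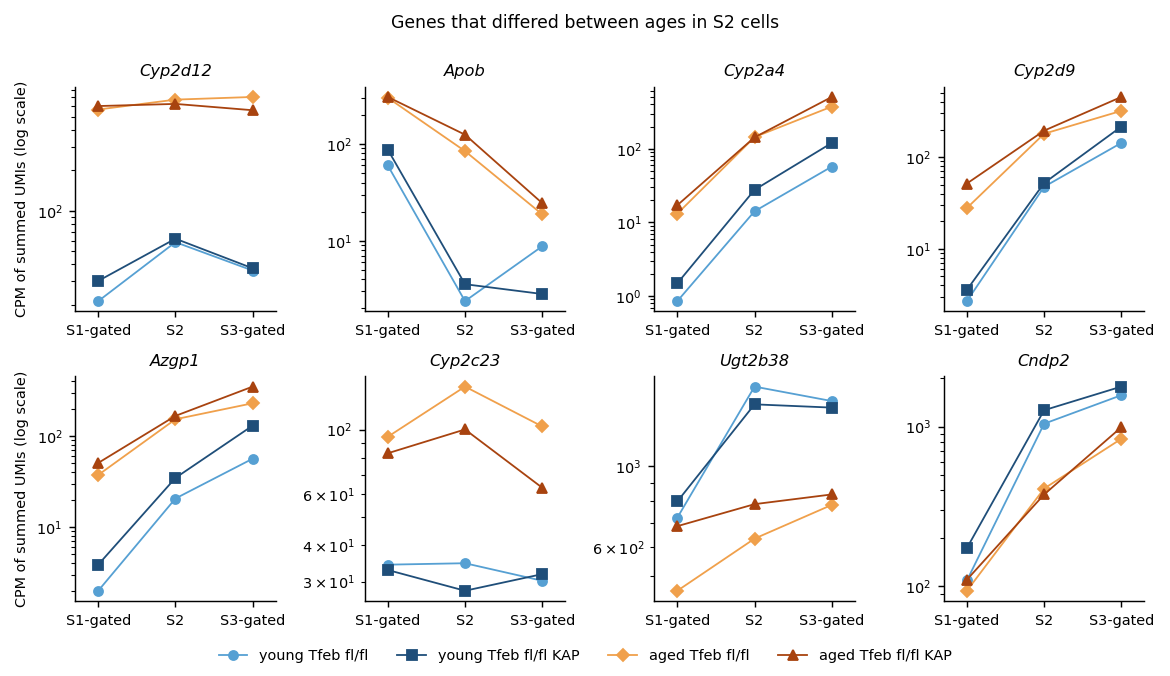
CPM of summed UMIs (log scale) in S1-gated, S2 and S3-gated cells for 8 genes that differed with age in S2 cells, with 1 point per library. Cyp2d12 was more than 10 times higher in both aged libraries at S2, while Ugt2b38 and Cndp2 were lower there in both aged libraries.

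Genes lower in both aged libraries included several that young mice express toward the S3 end. Cndp2, a cytosolic dipeptidase, was at 1043, 1266, 410 and 376 CPM, log2 ratios of −1.35 (−1.39 to −1.31) and −1.75 (−1.80 to −1.70). Acsm3, a medium-chain acyl-CoA synthetase, was at 101, 119, 35.7 and 33.7 CPM. The glucuronosyltransferase gene Ugt2b37 (215, 120, 65.4 and 52.4 CPM) was lower in both, as was Ttr (222, 188, 68.6 and 85.5 CPM). Gdf15, a stress-induced cytokine, was at 97.3, 135, 42.3 and 55.4 CPM, but its log2 ratios were 0.21 and 0.14 among cells with 0 UMIs of the S3 genes. Atp11a, a phospholipid flippase (233, 272, 91.4 and 128 CPM), Slc5a10, a sodium-sugar cotransporter (124, 119, 61.1 and 40.9 CPM), and Agps, an enzyme of ether lipid synthesis in peroxisomes (78.0, 89.1, 38.6 and 39.9 CPM), complete the 8 furthest below among genes with a mean of at least 50 CPM. Further down the list Ugt2b38, close in sequence to Ugt2b37, was at 1644, 1471, 633 and 786 CPM, Ces1g, a carboxylesterase, was at 89.6, 79.2, 19.4 and 49.9 CPM and Ly6a at 392, 487, 218 and 202 CPM. Manf, an endoplasmic reticulum stress protein, passed in KAP mice alone (180, 272, 165 and 119 CPM).

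Position along the tubule moved with these age differences. Of the 4500 genes, 375 (8.33%) were at least 1.5-fold higher in S1- than in S3-gated cells of both young libraries and 442 (9.82%) higher in S3-gated cells. Among the 89 genes higher with age in both genotypes, 40 (44.9%) were S1-higher by this measure, 10 (11.2%) S3-higher and 39 neither. Among the 46 lower with age, 30 (65.2%) were S3-higher, 3 (6.52%) S1-higher and 13 neither. Without the bound on the S3 genes, which kept 5419 cells, 57 genes were higher in both, 43 of them shared with the 89, and 29 lower in both, 17 of them shared with the 46. Cyp2d12, Cyp2a4, Azgp1, Hpd, Cyp2a5, Cyp2d9 and Apob passed in both genotypes under that selection too. In KAP mice it took Agps to a log2 ratio of −0.08, Atp11a to −0.25 and Ugt2b37 to 0.48. The part of position in the age differences was not tested.

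Transporters of amino acids, sugars and lactate were among the genes past the fold with age. Of 20 amino acid and peptide transporters, 17 were compared and 3 were higher in both aged libraries, namely Slc6a19, the main neutral amino acid transporter (100, 89.4, 218 and 274 CPM), Slc7a7, the basolateral cationic amino acid exchanger subunit (83.8, 60.9, 155 and 126 CPM), and Slc6a6, the taurine transporter (248, 178, 414 and 346 CPM). Slc43a2 was lower in control mice. Over all genes 1.98% were higher and 1.02% lower in both. The list medians were 0.15 and 0.23, beside 0.03 and 0.01 over all genes compared. In the sugar and monocarboxylate list of 14, 13 were compared, and Slc5a12 (61.5, 54.4, 207 and 323 CPM) and the fructose transporter Slc2a5 (19.2, 16.9, 30.5 and 33.7 CPM) were higher in both while Slc5a8, the high-affinity lactate transporter of later segments, and Slc5a10 were lower in both (medians −0.17 and 0.16). Slc5a2, which the selection bounded, is one of the 13. In KAP mice 2 of the 13 were higher and 4 lower, beside 4.59% and 2.21% of all genes. Slc5a1, the glucose transporter SGLT1, was also lower there (41.4, 28.5, 29.3 and 14.3 CPM). Of 26 transporters of phosphate, sulfate, citrate, sodium, acid and water, 23 were compared and Slc13a1 alone passed in both, with log2 ratios of 0.90 (0.85 to 0.94) and 0.69 (0.64 to 0.74) (medians 0.05 and 0.01). Slc34a1, which the selection required, is one of the 23.

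The organic anion, cation and urate transporters, the group for which S2 cells are known, included genes past the fold in either direction. Of 16 compared of 22, 1 was higher (the carnitine transporter Slc22a5: 54.7, 55.7, 88.4 and 75.4 CPM) and 1 lower in control mice, and 0 higher and 3 lower in KAP mice (medians −0.05 and −0.08), beside 4.4% higher and 2.35% lower, and 4.59% and 2.21%, of all genes. Slc22a8, which the selection used, is one of the 16. Slco1a1, an androgen-dependent organic anion transporter, was lower in both aged libraries (33.9, 69.7, 18.6 and 22.7 CPM). Slc22a6 had log2 ratios of −0.41 (−0.45 to −0.37) and −0.76 (−0.81 to −0.72), past the fold in KAP mice, and the phosphate and urate transporter Slc17a3 (473, 536, 335 and 355 CPM) likewise passed there alone.

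Endocytosis and hormone genes past the fold were all higher in aged S2 cells. Of 14 compared of 17, 3 were higher in control and 4 in KAP mice and 0 lower (medians 0.30 and 0.29), beside 4.4% and 4.59% of all genes higher. Those higher in both were Cubn, Cyp24a1, which inactivates vitamin D (31.3, 27.3, 56.6 and 72.9 CPM), and the insulin receptor Insr (35.2, 30.3, 55.6 and 49.1 CPM). Igf1r was at 252, 201, 353 and 370 CPM and passed in KAP mice alone. Of 20 brush border enzymes 15 were compared in control and 14 in KAP mice. The ectonucleotidase Nt5e was lower in both (38.4, 45.4, 19.2 and 27.4 CPM), beside 1.02% of all genes lower in both. Mme was higher in control and Alpl in KAP mice (medians −0.10 and −0.00).

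Among nuclear-encoded genes of oxidative phosphorylation 0 passed the fold with age in either genotype, beside 4.4% higher and 2.35% lower of all genes in control and 4.59% and 2.21% in KAP mice, shares that leave few calls to lists of this size. The medians for the nuclear subunits were −0.06 and −0.16 for complex I (36 genes compared), 0.00 and −0.10 for complexes III and IV (22 of 23) and −0.06 and −0.12 for complex V (17). In S1-gated cells the same lists had medians from −0.24 to −0.40 and in S3-gated cells from −0.02 to 0.15, so S2 cells lay between them. The 22 citrate cycle genes compared of 23 had 0 past the fold (medians −0.06 and −0.03), as had the 10 glycolysis genes of 18 (medians −0.19 and −0.24). Of the 13 mitochondrially encoded genes, mt-Nd4l was higher in both (1186, 1459, 2032 and 2369 CPM) and mt-Atp8 in control mice (medians 0.13 and 0.24). The plot of list medians sets these beside the other groups.

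**Figure D4:**
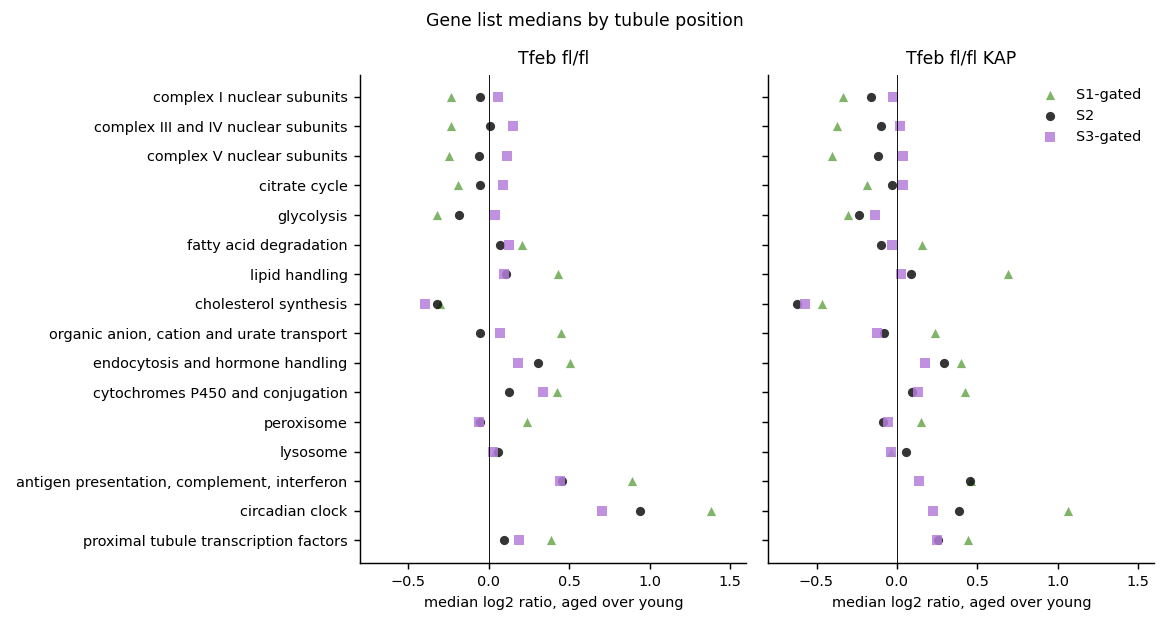
Median log2 ratio, aged over young, of 16 gene lists in S1-gated (triangles), S2 (circles) and S3-gated cells (squares), in control (left) and KAP mice (right). For the respiratory complexes S2 cells lay between S1- and S3-gated cells, and for cholesterol synthesis all 3 were below 0 in both genotypes.

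The cholesterol synthesis genes past the fold were all lower with age. Of 8 compared of 20, 2 were lower in control and 4 in KAP mice and 0 higher, beside 2.35% and 2.21% of all genes lower, with medians of −0.32 and −0.62, and −0.31 to −0.57 in S1- and S3-gated cells. Mvd (35.3, 39.6, 19.4 and 18.1 CPM) and Cyp51 (32.7, 39.7, 21.4 and 18.5 CPM) were lower in both, and Idi1 (74.0, 97.7, 68.0 and 51.8 CPM) and Sqle (27.2, 26.1, 19.2 and 16.0 CPM) in KAP mice. Of the 47 genes of the study's fatty acid degradation list, 34 were compared, with 1 higher and 1 lower in control, and 1 higher and 3 lower in KAP mice (medians 0.07 and −0.10). Cpt1a, which admits long-chain fatty acids to mitochondria, was at 88.0, 87.3, 122 and 131 CPM, and Cyp4a10 and Cyp4a14, omega-hydroxylases that PPARα induces, were at 104, 131, 112 and 86.5 CPM and at 65.6, 71.2, 90.3 and 45.8 CPM. Over all genes 4.4% and 4.59% were higher in control and KAP mice, and 1.98% were higher and 1.02% lower in both. Among 37 lipid handling genes, 21 were compared in both and Apob, Apoe and Mttp were higher in both (medians 0.10 and 0.09), Ppara in control mice (32.2, 42.0, 65.3 and 58.3 CPM) and Angptl4, an inhibitor of lipoprotein lipase, in KAP mice (18.1, 20.1, 26.9 and 50.5 CPM). In this list 4 genes were higher and 1 lower in control mice, and 5 higher and 1 lower in KAP mice. The lower ones were Fabp3 in control mice (45.9, 15.2, 6.60 and 8.12 CPM, highest in the young control library) and Lpl in KAP mice. Of 46 peroxisome genes, 36 were compared in both, and Hao2 was higher in both (236, 199, 438 and 374 CPM) and Nudt19, a coenzyme A hydrolase (368, 555, 217 and 284 CPM), and Agps were lower in both (medians −0.05 and −0.09). With 0 UMIs of the S3 genes the log2 ratio of Hao2 in KAP mice was −0.11.

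The P450 and conjugation list had members past the fold with age in either direction. Of 41 genes, 7 were higher and 3 lower of 34 compared in control mice and 8 higher and 5 lower of 35 in KAP mice, beside 4.4% and 2.35%, and 4.59% and 2.21%, of all genes. Those past the fold in both were 6 higher and 3 lower genes, the lower ones being Ugt2b37, Ugt2b38 and Cyp4a12b (medians 0.13 and 0.09). In the gluconeogenesis and fructose list Fbp2 alone passed, in both (18.5, 16.3, 29.7 and 27.8 CPM; medians 0.07 and 0.03). Of 30 genes of amino acid breakdown and ammonia, Hpd and Hao2 were higher in both, and Prodh and Mccc1 in KAP mice (medians 0.17 and 0.11). Among 22 genes of inositol, arginine, creatine and one-carbon synthesis, 0 passed in both. Oat was lower in control mice (126, 84.7, 78.5 and 64.0 CPM), Gnmt and Dmgdh were higher there, and Asl and Folh1 were higher in KAP mice (medians 0.17 and 0.04), Asl having a log2 ratio of −0.19 there with 0 UMIs of the S3 genes. Of the 8 androgen-responsive genes, 7 were compared, and 3 were lower and 0 higher in each genotype (medians −0.24 and −0.51), beside 2.35% and 2.21% of all genes lower. The median in KAP mice was 0.069 without the bound on the S3 genes. Kap was lower with log2 ratios of −0.69 and −0.51, the second short of the fold, and Odc1, the first enzyme of polyamine synthesis, was at 521, 868, 441 and 555 CPM.

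In the list of antigen presentation, complement and interferon genes, those past the fold were higher in aged S2 cells. Of its 31 genes, 9 and 8 were compared, and 3 were higher and 0 lower in each genotype (medians 0.45 and 0.45), beside 4.4% and 4.59% of all genes higher. The class I gene H2-K1 (72.7, 89.4, 151 and 141 CPM) and the interferon-induced Ifi27 (16.9, 15.6, 44.3 and 45.2 CPM) were higher in both, while Cd74, a marker of myeloid cells in the lists above, was at 17.9, 7.18, 28.2 and 27.3 CPM. The part of myeloid RNA in the others was not tested. Of 17 circadian genes, 5 of 7 compared were higher in control and 1 of 6 in KAP mice (medians 0.94 and 0.38), beside the same shares of all genes, Nr1d1 in both (27.8, 17.6, 53.4 and 49.6 CPM). Dbp, an output of the clock, was at 8.17, 9.41, 40.2 and 11.5 CPM, highest in the aged control library, and Bhlhe40 at 38.4, 55.5, 95.6 and 80.0 CPM. Time of day at collection was not known here and cannot be told apart from age with 1 library each.

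Over all genes 1.98% were higher and 1.02% lower with age in both genotypes, against which the counts of the following lists stand. Of 25 immediate early and heat shock genes, Fosb was higher in both aged libraries (114, 82.2, 195.3 and 128 CPM), whereas the chaperones Hsph1 (77.3, 137, 93.2 and 70.6 CPM) and Dnaja1 (562, 787, 432 and 391 CPM) were highest in the young KAP library (medians 0.32 and −0.02). Of 25 oxidative stress genes, Hmox1, heme oxygenase 1, was lower in both (27.7, 36.9, 15.0 and 14.3 CPM), Prdx1 in control mice (2113, 1850, 1266 and 1319 CPM) and Gclm and Me1 in KAP mice (medians −0.15 and −0.04). Of 12 metal genes, 0 passed the same way in both (medians −0.37 and −0.07), and the transferrin receptor Tfrc was at 51.2, 49.6, 39.6 and 21.2 CPM. Among 24 tubular injury genes 6 reached 20 CPM, and the small heat shock protein Cryab was lower in both (30.0, 29.9, 16.2 and 16.6 CPM; medians −0.28 and 0.08). Of 17 cell cycle inhibitor and senescence genes, 7 were compared, with Gdf15 lower in both and the inhibitor Cdkn2c higher in KAP mice (24.6, 20.2, 27.6 and 40.1 CPM; medians −0.11 and −0.24). With 0 UMIs of the S3 genes the metal median in control mice was 0.49 and the senescence median in KAP mice was 0.29. Under that selection the log2 ratios of Gdf15 were 0.21 in control and 0.14 in KAP mice. Of 24 proximal tubule transcription factors, Maf was higher in both (390, 281, 600 and 620 CPM; medians 0.09 and 0.26), and Cebpb was lower in control mice (77.0, 56.4, 48.3 and 61.8 CPM), though its log2 ratio was 0.25 with 0 UMIs of the S3 genes.

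Between genotypes the counts were lower. In young mice 32 of 4535 genes (0.706%) were higher and 42 (0.926%) lower in KAP S2 cells, and in aged mice 55 of 4697 (1.17%) were higher and 42 (0.894%) lower. Scaling to nuclear genes alone gave 32 higher and 66 lower of 5329 in young mice. The genotype comparisons share no library with each other. Of 4381 genes compared at both ages, 3 (0.0685%) were higher in both, 7 (0.16%) lower in both, 0 (0.0%) higher then lower, and 6 (0.137%) lower in young and higher in aged KAP mice.

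The known target groups of TFEB were compared next, in cells that the study does not describe as Tfeb-deleted. Kap, whose promoter drove the Cre, was abundant in these cells, and whether Tfeb was deleted in any of them was not tested. Of the 12 MiT/TFE factors and their regulators, 6 reached a mean of 20 CPM in each comparison. None differed past the fold between genotypes, with medians of −0.06 in young and −0.00 in aged mice. The folliculin partner Fnip2 was higher in aged control mice (30.5, 28.0, 48.0 and 40.4 CPM). Among 72 lysosomal genes, 52 reached that level in both genotype comparisons and 0 passed the fold in either (medians −0.01 and 0.01). Over all genes 0.706% were higher and 0.926% lower in young and 1.17% and 0.894% in aged mice, so a count of 0 is near the background. With age 4.4% and 4.59% of all genes were higher in control and KAP mice, 2.35% and 2.21% lower, and 1.98% higher and 1.02% lower in both, so the following counts of 1 or 2 genes are no result about these lists. Gaa, the lysosomal acid glucosidase, was the 1 lysosomal gene of 52 past the fold with age, in KAP mice (24.2, 22.7, 35.7 and 35.9 CPM), and the list medians were 0.06 and 0.05. Among 30 autophagy and mitophagy genes, Gabarapl1, an ATG8 family member of the autophagosome, was higher with age in both genotypes (138, 135, 252 and 259 CPM) and Map1lc3a lower in KAP mice (229, 256, 165 and 159 CPM), with medians of 0.03 and −0.03. With genotype 0 of these genes passed (medians 0.07 and 0.03).

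Cyp4a12a, an androgen-induced omega-hydroxylase of arachidonic acid, was higher at both ages, at 22.0, 86.8, 48.7 and 98.2 CPM, log2 ratios of 1.98 (1.80 to 2.17) and 1.01 (0.88 to 1.15). Its near-identical neighbour Cyp4a12b was at 28.7, 43.4, 17.5 and 23.4 CPM and passed in young mice alone. The other 2 genes higher at both ages, named after their values were seen, were Fxyd4 and Tmem50a (15.6, 27.0, 27.8 and 44.4 CPM). Spp1 was lower at both ages (271, 69.5, 155 and 73.8 CPM, log2 ratios −1.96 and −1.07), and a UMI of it was found in 64.1%, 11.4%, 33.6% and 10.7% of S2 cells. S1-gated cells held Spp1 at 1884, 1266, 1155 and 587 CPM. Apoe, the ligand of lipoprotein receptors, was also lower at both ages (93.6, 55.3, 200 and 98.6 CPM), as were the retinol dehydrogenase relative Rdh16f2 (89.9, 58.7, 224 and 124 CPM), Prxl2b (103, 58.8, 126 and 73.8 CPM) and the transcript AY036118 (164, 23.1, 116 and 64.5 CPM). The other 2 of the 7 were Mylip and the unnamed transcript Gm42418. Apoe and Spp1 were higher in S1-gated than in S2 cells of every library. Deposited matrix entries at 0, which the authors' subtraction of free RNA can leave, made up 2.90%, 12.5%, 9.41% and 12.9% of entries. The part of that subtraction in these differences was not tested.

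In young mice the furthest genes each way are given among those with a mean of at least 50 CPM. Furthest above the control library, after Cyp4a12a, were genes that included Slco1a1 (33.9 against 69.7 CPM), Hsph1, its fellow chaperone gene Chordc1 (41.2 against 72.1 CPM), Odc1 and Rps29 (546 against 863 CPM). Hbb-bs was among the 8, but its UMIs were found in 0.132% of young control and 0.262% of young KAP S2 cells, and its log2 ratio was −2.04 with at least 2000 genes per barcode. Rps29, a ribosomal protein gene, was at 896 CPM in aged control mice, so for this gene the young control library was the low one. Under the same limit, furthest below were AY036118, S100g, Spp1, the cyclin Ccnd1 (114 against 55.2 CPM), Nudt4 (75.7 against 40.3 CPM), Gadd45g (157 against 85.7 CPM), Ugt2b37 (215 against 120 CPM) and Prxl2b. With 0 UMIs of the S3 genes the log2 ratio of Nudt4 was 0.060. Car14, a luminal carbonic anhydrase, was at 127 and 81.5 CPM. Slco1a1 and Odc1 were the 2 of 7 androgen-responsive genes past the fold in young mice, and in aged mice 0 of 7 were, beside 0.706% and 1.17% of all genes higher (medians 0.21 and 0.21, against 0.02 and −0.00 over all genes).

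In aged mice, among genes with a mean of at least 50 CPM, several of the largest ratios between genotypes came from few cells. Fxyd4, Hsd11b2, Aqp2, Slc12a3 and S100g, genes of the collecting duct and distal tubule, were at 103, 78.0, 75.6, 72.1 and 147 CPM in aged KAP S2 cells, against 22.0, 29.2, 28.7, 29.4 and 39.8 CPM in aged control ones. The 5 cells with most UMIs of each gene held 78.9%, 70.2%, 84.2%, 63.5% and 100% of them in the aged KAP library. With the highest doublet scores removed the log2 ratio of Aqp2 was −0.67 and that of Hsd11b2 −0.14, in place of 1.40 and 1.42. The summed connecting tubule and principal cell markers, 96.2 against 256 CPM, include Aqp2 and Hsd11b2. The other markers in that sum were also higher in aged KAP S2 cells: Calb1 (2.45 against 21.0 CPM), Slc8a1 (6.77 against 31.7 CPM), Aqp3 (28.4 against 46.7 CPM) and Scnn1g (0.63 against 3.25 CPM). Of these, Calb1 had 99.0% and Aqp3 64.8% of its UMIs in 5 cells of the aged KAP library, so they too came largely from few cells. The plot of how UMIs were shared among cells sets these beside genes that most cells carried.

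**Figure D5:**
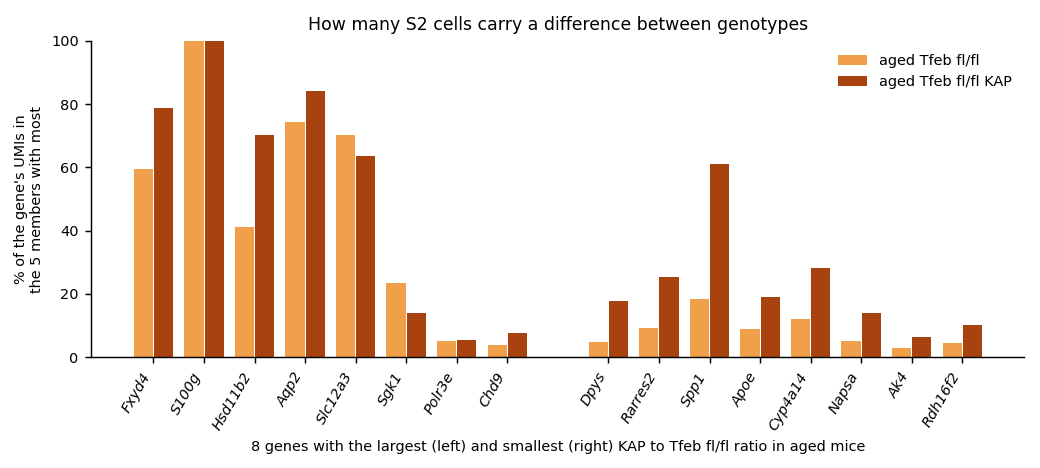
Percent of a gene's UMIs held by the 5 S2 cells with most of them (bars from 0), in aged control and aged KAP mice. Shown are the 8 genes with the largest and the 8 with the smallest ratio between them, among genes with a mean of at least 50 CPM. Distal genes such as Aqp2 rested on 5 cells for 84.2% of UMIs in KAP mice, whereas Polr3e did for 5.46%.

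Polr3e, a subunit of RNA polymerase III, was at 139, 102, 85.7 and 197 CPM and Chd9, a chromatin remodeler, at 250, 262, 193 and 432 CPM, with a UMI of Polr3e in 66.5% and 81.7% and of Chd9 in 83.7% and 90.5% of aged control and aged KAP S2 cells. Sgk1, a kinase that glucocorticoids and mineralocorticoids induce, was at 76.1, 56.5, 37.96 and 88.1 CPM. The same order held in S1-gated cells, with Polr3e at 133 and 343 CPM, Chd9 at 324 and 689 CPM and Sgk1 at 86.1 and 225 CPM in the aged libraries. Lower in aged KAP mice were Dpys, dihydropyrimidinase (37.4, 25.997, 77.6 and 31.9 CPM), Rarres2, which encodes chemerin (141, 133, 150 and 65.4 CPM), Spp1, Apoe, Cyp4a14, Napsa (498, 491, 532 and 278 CPM), the mitochondrial adenylate kinase Ak4 (150, 153, 192 and 105 CPM) and Rdh16f2. Lpl, lipoprotein lipase, was at 504, 631, 578 and 358 CPM. Napsa, Dpys and Cyp4a14 were higher in S3- than in S1-gated cells of every library, and Slc5a2, which bounded the selection on the S1 side, was at 79.2 CPM in aged control and 157 CPM in aged KAP S2 cells. The part of position in them was not tested.

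Between genotypes the P450 and conjugation list had 3 higher and 2 lower of 34 genes in young and 2 higher and 1 lower of 35 in aged mice, beside 0.706% and 0.926%, and 1.17% and 0.894%, of all genes. In young mice these were Cyp4a12a, Cyp4a12b and Cyp2a4, which were higher, and Ugt2b37 and Gsta2, which were lower, and in aged mice Cyp4a12a and Aldh1a1, which were higher, and Cyp4a14. The immediate early and heat shock list had 3 higher and 1 lower of 19 in young and 0 higher and 2 lower of 20 in aged mice. The higher ones were the chaperones Hspa1b (7.57, 41.5, 17.5 and 7.81 CPM), Hsph1 and Dnajb1, and the lower ones Zfp36, an RNA decay factor, in young mice and the transcription factors Fosb and Klf4 in aged mice, Fosb having a log2 ratio of 0.045 with 0 UMIs of Slc5a2. Of the lipid handling genes 0 of 19 were higher and 2 lower in young mice, Fabp3 and Apoe, and 1 of 22 higher (Angptl4) and 2 lower (Lpl and Apoe) in aged mice. For complex I, complexes III and IV, and complex V, 0 genes passed the fold at either age, with medians of 0.07, 0.10 and 0.07 in young and 0.02, 0.01 and 0.02 in aged mice, beside 0.02 and −0.00 over all genes. For fatty acid degradation the medians were 0.13 and 0.00 and for peroxisomes 0.04 and −0.02. The counts of higher and lower genes were 2 and 0 in young and 1 and 1 in aged mice for fatty acid degradation, Cyp4a12a and Cyp4a12b being the 2. Of the endocytosis and hormone genes 0 of 14 passed at either age (medians −0.08 and −0.09), and of the organic anion, cation and urate transporters 1 of 16 was higher in young mice, Slco1a1, and 0 of 17 in aged mice. Of the sugar and monocarboxylate transporters other than Slc5a2, which the selection bounded, Slc5a12 and Slc16a1 (42.0, 39.7, 30.5 and 52.6 CPM) were higher in aged KAP mice and Slc5a1 was lower. Without the S3 bound and with 0 UMIs of Slc5a2 the log2 ratio of Slc5a12 was −0.50. Of the amino acid transport, gluconeogenesis, glycolysis, cholesterol synthesis, citrate cycle, oxidative stress, antigen presentation and senescence lists, 0 genes passed the fold between genotypes at either age.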

How the data were processed

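Single-cell RNA from the digested renal cortex of male mice was measured with a 3′ Chromium v3.1 kit, in 1 library for each of 4 conditions. The authors deposited UMI counts per gene and barcode, made with Cell Ranger 6.0.0 against mm10 and corrected for free RNA with SoupX. Cell Ranger, Seurat 4.4.0 and mm10 are named in the submitters' processing notes. Entries stored with a value of 0 were kept as 0. All 4 libraries had their group from the labels, and no cell annotation was used.

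Counts of the S2 cells were summed per library and scaled to CPM (Python 3.11.15 with scipy 1.17.1, pandas 2.3.3 and numpy 2.4.6). Log2 ratios of CPM had exact conditional binomial 95% intervals. Genes were called past the fold at a mean of 20 CPM, a ratio of 1.5 and an interval without 0. No test between conditions was run, since each condition had 1 library. Named genes were the 8 furthest each way in every comparison and in both comparisons of a kind, with a mean of at least 50 CPM and leaving out selection genes, mt- genes and unnamed transcripts. To these were added list members past the fold, the 10 genes with the highest lowest Fano factor and the 8 genes most above S1- or S3-gated cells. The 32 gene lists held 782 genes. The members and lists were chosen with earlier results of these data known. Scrublet in scanpy 1.11.5 was used for 1 alternative only, with 0.8% of barcodes removed per 1000. Results of some genes are not reported here. Promoter and gene positions came from RefSeq on GRCm38.p6. Scripts were tested on simulated data, and 16 alternatives were tried. Depth per library ranged from 9853355 to 17569327 UMIs over S2 cells, and at the median gene the 95% interval of a log2 ratio reached 0.147 to 0.167 either side.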

Additional observations from a re-analysis of the deposited data

Results flagged for a closer look

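Age went with opposite differences in the genotypes for 9 genes, each lower in aged than in young control S2 cells and higher in aged than in young KAP S2 cells. The difference between genotypes was not tested, since each condition had 1 library. The log2 ratios, control first, were −1.04 and 0.68 for Aqp3, a water channel of principal cells, −0.59 and 1.15 for Fkbp5, a glucocorticoid-induced chaperone partner, and −1.35 and 0.61 for Gadd45g. They were −3.35 and 3.18 for Klk1, a kallikrein of the distal nephron, −1.88 and 1.41 for the metallothionein Mt1, and −0.79 and 0.73 for Nudt4. They were −0.70 and 0.95 for Polr3e, −2.04 and 2.48 for S100g, a calcium-binding protein of the distal nephron, and −1.004 and 0.64 for Sgk1.

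Of these genes 6 were also opposite between ages in the genotype comparison, lower in KAP than in control mice when young and higher when aged. The comparisons use the same 4 libraries and are not independent, and again the difference was not tested. The log2 ratios, young first, were −1.003 and 0.72 for Aqp3, −0.87 and 1.09 for Gadd45g, −3.54 and 2.98 for Klk1, −1.64 and 1.65 for Mt1, −0.91 and 0.61 for Nudt4, and −2.63 and 1.88 for S100g.

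For Klk1, S100g and Mt1 few cells carried the UMIs outside the young control library. Klk1 was at 87.6, 7.53, 8.59 and 68.0 CPM and was found in 24.3%, 0.655%, 0.661% and 0.928% of S2 cells, and the 5 cells with most held 44.0%, 100%, 100% and 100% of its UMIs. S100g was at 163, 26.3, 39.8 and 147 CPM and was found in 11.1%, 0.262%, 0.265% and 0.232% of S2 cells, and with each cell weighing the same its log2 ratio with age in KAP mice was −0.53. Mt1 was at 60.6, 19.4, 16.4 and 51.5 CPM, in 34.0%, 4.33%, 4.10% and 8.35% of S2 cells. Aqp3 was at 58.4, 29.1, 28.4 and 46.7 CPM, in 46.6%, 30.3%, 30.8% and 25.1% of S2 cells, and the 5 cells with most held 21.6%, 14.1%, 27.7% and 64.8% of its UMIs. Nudt4 was at 75.7, 40.3, 43.9 and 67.0 CPM, in 52.1%, 27.4%, 41.0% and 20.4% of S2 cells, with 15.2%, 25.8%, 13.1% and 49.8% of its UMIs in 5 cells.

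By contrast Fkbp5, at 31.5, 25.9, 20.9 and 57.4 CPM, was found in 35.9%, 28%, 33.5% and 55.5% of S2 cells, and the 5 cells with most held 7.08%, 8.06%, 6.25% and 9.01% of its UMIs. Polr3e was at 139, 102, 85.7 and 197 CPM and Gadd45g at 157, 85.7, 61.5 and 131 CPM. Counts of other cells' markers at 20 CP10k or more in 6.73% of aged KAP S2 cells, against 3.84% in aged control ones, went the same way as the distal genes, and their part was not tested.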

How the results depend on the processing

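No paired analysis was possible because each condition had 1 library and the labels give no replicate numbers that pair libraries. Of the 16 alternatives, 3 were chosen after seeing the data: S2 cells with other cells' markers under 20 CP10k, the deepest cells left out, and no bound on the S3 genes with 0 UMIs of Slc5a2. Counts of genes stayed within 1.5 times with at least 2000 genes per barcode, with the highest doublet scores removed, with ratios centred on their median and with other cells' markers under 20 CP10k. With each cell weighing the same no interval was computed, so those counts rest on the mean and the ratio alone, a looser rule. Where a count or direction moved, the cause was not tested, except that fewer cells or fewer UMIs give wider spread by construction. The limits are 1 pooled library per condition, cells chosen on few UMIs of each gene, a deposited correction for free RNA and fixed bounds that turned away different numbers of cells by age.

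The number of S2 cells, 2708, was 848 with a mitochondrial limit of 20%, 1270 with Slc22a8 at 6 CP10k or more, 5419 without the bound on the S3 genes, 449 with 0 UMIs of the S3 genes and 1316 with 0 UMIs of Slc5a2. The alternatives also changed how many genes were compared. Genes higher and lower with age numbered 368 and 215 of 5231 compared in control mice under the mitochondrial limit. They numbered 790 and 256 of 4938 with 0 UMIs of the S3 genes and 370 and 201 of 4744 with cells thinned to 2000 UMIs. They were 500 and 278 of 8530 at a mean of 5 CPM or more and 49 and 28 of 1218 at 100 CPM or more. In KAP mice, genes higher with age numbered 505 of 5137 under the mitochondrial limit, 114 of 4610 without the S3 bound and 370 of 4560 with 0 UMIs of Slc5a2. They numbered 363 of 4713 with each cell weighing the same and 342 of 5457 over nuclear genes. Without the S3 bound and with 0 UMIs of Slc5a2 they were 133 of 4542. Higher and lower there were 884 and 324 of 4984 with 0 UMIs of the S3 genes and 446 and 177 of 4734 thinned. They were 676 and 205 of 8481 at 5 CPM and 40 and 39 of 1231 at 100 CPM. The share of higher genes among those past the fold in KAP mice was 67.5%, and over the alternatives it ran from 50.6% at 100 CPM, through 57.6% without the S3 bound, 76.2% over nuclear genes and 77.2% with each cell weighing the same, to 78.3% under the mitochondrial limit. In control mice it was 65.2%, and from 53.0% with 0 UMIs of Slc5a2 to 75.5% with 0 UMIs of the S3 genes.

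Between genotypes in young mice, genes lower in KAP mice numbered 194 of 5037 under the mitochondrial limit and 116 of 4446 with 0 UMIs of Slc5a2. They numbered 68 of 4597 with each cell weighing the same and 66 of 5329 over nuclear genes. Without the S3 bound and with 0 UMIs of Slc5a2 they were 70 of 4564. Higher and lower there were 190 and 225 of 4563 with 0 UMIs of the S3 genes and 112 and 160 of 4600 thinned. They were 92 and 184 of 8358 at 5 CPM and 9 and 8 of 1214 at 100 CPM. The share of higher genes was 43.2%, and from 17.8% under the mitochondrial limit, through 32.7% over nuclear genes, to 52.9% at 100 CPM. In aged mice higher and lower were 108 and 120 of 5322 under the mitochondrial limit and 254 and 253 of 5253 with 0 UMIs of the S3 genes. They were 164 and 129 of 4864 thinned, 186 and 126 of 8610 at 5 CPM and 7 and 10 of 1231 at 100 CPM. Higher alone were 118 of 4657 with 0 UMIs of Slc5a2 and 83 of 4853 with each cell weighing the same. The share of higher genes was 56.7%, and from 41.2% at 100 CPM to 70.7% with 0 UMIs of Slc5a2.

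Genes higher with age in both genotypes numbered 158 under the mitochondrial limit and 343 with 0 UMIs of the S3 genes. Higher and lower in both were 57 and 29 without the S3 bound, 51 and 30 without it and with 0 UMIs of Slc5a2, 234 and 91 at 5 CPM and 19 and 12 at 100 CPM. Genes higher and lower in KAP mice at both ages were 5 and 18 under the mitochondrial limit, 38 and 20 with 0 UMIs of the S3 genes, 5 and 2 with 0 UMIs of Slc5a2, 12 and 23 at 5 CPM, 0 and 2 at 100 CPM, 7 and 4 without the deepest cells, and 7 and 15 without the S3 bound and with 0 UMIs of Slc5a2. Higher alone were 8 without the S3 bound, 7 with each cell weighing the same and 10 thinned. How many genes were compared in both was not counted under the alternatives.

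Some log2 ratios changed sign. Without the S3 bound Ugt2b37 was at 0.48 and the androgen-responsive list at 0.069 with age in KAP mice, and Hpd at 0.0064 between aged genotypes. With 0 UMIs of Slc5a2 as well these were 0.75, 0.064 and 0.12, and Slc5a12 between aged genotypes was −0.50. With 0 UMIs of the S3 genes, in control mice with age Cebpb was at 0.25, Gdf15 at 0.21 and the metal list at 0.49. In KAP mice Asl was at −0.19, Cyp4a14 at 1.20, Gdf15 at 0.14, Hao2 at −0.11 and the senescence list at 0.29. Between genotypes Nudt4 was at 0.060 in young mice, and Hpd at 0.16 and the immediate early list at 0.028 in aged mice. With 0 UMIs of Slc5a2, Cyp4a14 was at 0.14 and the senescence list at 0.089 with age in KAP mice, and Fosb at 0.045 and the immediate early list at 0.091 between aged genotypes. The senescence list was also at 0.047 over nuclear genes, 0.0032 at 5 CPM and 0.0051 at 100 CPM. Hbb-bs between young genotypes was −2.04 with at least 2000 genes per barcode. Aqp2 and Hsd11b2 between aged genotypes were −0.67 and −0.14 with the highest doublet scores removed. S100g with age in KAP mice was −0.53 with each cell weighing the same and −0.37 thinned. Sign changes were counted only for named genes past the fold and for lists whose median lay past a set distance from 0. Over all alternatives these numbered 20 for named genes and 10 for lists. The 4121 gene values and 2036 list medians examined include smaller ones, whose changes of sign were not counted.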

Other observations

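The genes below were named after their values were seen, and these are descriptions. Gadd45a, a growth arrest gene, and Pmepa1 were lower in both aged libraries, with log2 ratios, control first, of −1.31 and −1.11 for Gadd45a and −1.14 and −1.10 for Pmepa1. Pde1a, a phosphodiesterase of cyclic nucleotides, was higher in both, at 1.97 and 3.56.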
